A study of Rattus norvegicus with 5 samples.

Results

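The genes described here digest the common dietary sugars at the brush border of the small intestine, carry the resulting monosaccharides across the enterocyte and start the use of fructose. They were chosen by name from a list of 7 genes, and every gene probe (Affymetrix probe set) whose annotation carried one of these names was taken. Of the 7 genes, 6 had a gene probe, 1 each: *Si*, *Treh*, *Slc5a1*, *Slc2a2*, *Slc2a5* and *Khk*. No gene probe carried the name *Lct* (lactase), so this gene is not analysed here. The 6 gene probes stand among 15866 on the array without the array controls, which name 10411 single genes.

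From 6 weeks of age, male Wistar rats received 5, 10, 20 or 30% less of a purified powdered diet than the recorded daily intake of freely fed rats for 1 month, and control rats received the whole of that intake. All rats were dissected after a 16 h fast, so the values describe the fasted intestine of young growing animals. Small intestine RNA of 5 rats was pooled at each level of calorie restriction (CR) and hybridized to 1 array, which gives 1 value per level, no replicate of any level and no view of single rats. The signals are MAS5 intensities on a linear scale, which compare arrays for the same gene probe but not one gene with another.

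Starch and sucrose are cut to single sugars by hydrolases anchored in the brush border of enterocytes. Glucose and galactose enter the cell together with sodium through SGLT1, fructose enters by facilitated diffusion through GLUT5, and the sugars leave on the blood side mainly through GLUT2. These genes are known to follow the sugar content of the diet and, in part, the time of day and of feeding.

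On all 5 arrays the tissue carried enterocyte markers. The 15 measured ones all lay above the signal filter (46.5, the median of the mean signals), and their summed signal was 20670 in the control pool, then 22621, 22422, 29981 and 22127 from 5 to 30% CR. Of the 3 measured ileal markers, *Fabp6* and *Slc10a2* had signals between 5.5 and 24, below the filter, and *Nr1h4*, which was kept, between 75 and 133. The 20% CR array stood apart in the ratio of the 3' to the 5' beta-actin signal, a measure of RNA integrity, with 3.18 against 2.20 to 2.41 on the other 4 arrays, but not in that of *Gapdh*, with 1.27 against 1.21 to 1.40. Signals of the spike-in array controls were on average 0.50 higher there than on the control array (log2), against −0.32, 0.07 and −0.22 at 5, 10 and 30% CR. The control array stood apart in exocrine pancreas markers: 8 of 9 were brightest there, and without *Cela1*, the exception, they summed to 644 on it and to 224, 76.9, 87.1 and 80.1 at 5, 10, 20 and 30% CR. All ratios below share this control array. The paper names no segment of the small intestine. The 6 markers of the proximal intestine had median log2 ratios of −0.005, −0.04, −0.06 and −0.24 at 5, 10, 20 and 30% CR. The part of the enterocyte share, of the segment, of RNA integrity, of the spike-in difference or of pancreatic RNA in the results was not tested. With bulk RNA, fewer enterocytes and less RNA per enterocyte cannot be told apart.

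*Si* codes for sucrase-isomaltase, which splits sucrose and much of the maltose and isomaltose left from starch. Its gene probe (1387539_at) had signals of 2335 in the control pool, then 2549, 2398, 3096 and 2777 in the pools at 5, 10, 20 and 30% CR. All 4 CR arrays were above the control array, most at 20% CR and least at 10% CR, where the log2 ratio was 0.04. Averaged over the CR pools, the log2 ratio was 0.21 ± 0.16 (standard error; 95% confidence interval −0.15 to 0.56, limma adjusted p = 0.988). That interval spans 0.903 to 1.47 times the control signal. The slope over the restriction percent was 0.10 ± 0.05 (log2 per 10% restriction, adjusted p = 0.998), the largest slope relative to its error among the 6 genes, with an unadjusted p of 0.0834. With 1 pool left out this slope ranged from 0.074 (without 20% CR) to 0.19 (without 30% CR, unadjusted p = 0.0295, adjusted p = 0.761).

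*Treh* codes for trehalase, which cuts trehalose, the sugar of mushrooms and insects, into glucose. Its gene probe (1371144_at) had signals of 124 in the control pool, then 85.9, 76.2, 159 and 90.8 from 5 to 30% CR. The 5, 10 and 30% CR arrays were below the control array and the 20% CR array was above it, so the highest and the lowest signal, 2.09-fold apart, were both found under CR. The log2 ratios were −0.53, −0.70, 0.36 and −0.45, with a mean of −0.33 ± 0.35 (95% interval −1.10 to 0.44, adjusted p = 0.988). Without the 20% CR pool the mean was −0.56 (adjusted p = 0.493). *Treh* thus took the opposite side from *Si* at 3 of the 4 levels.

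**Figure D1:**
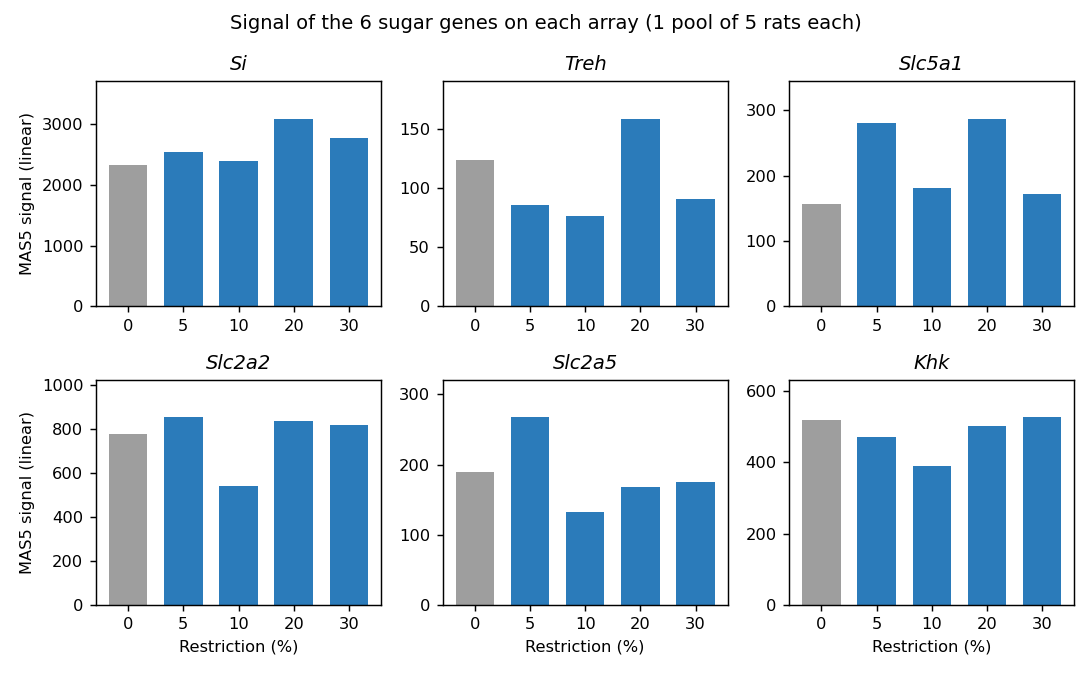
MAS5 signal (linear scale, bars from 0) of *Si*, *Treh*, *Slc5a1*, *Slc2a2*, *Slc2a5* and *Khk* on the control array (0%, grey) and on the 5, 10, 20 and 30% CR arrays (blue), with 1 pool of 5 rats per bar and therefore no error bars. *Slc5a1* was highest at 5 and 20% CR (280 and 287), and *Slc2a2*, *Slc2a5*, *Khk* and *Treh* were lowest at 10% CR.

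*Slc5a1* codes for SGLT1, the sodium-driven carrier that takes up glucose and galactose at the apical membrane. Signals of its gene probe (1369759_at) were 157 in the control pool, then 280, 181, 287 and 172 from 5 to 30% CR. The arrays formed a high pair, 5 and 20% CR, and a low group made of the control, 10% and 30% CR arrays, an order that does not follow the restriction. The 4 CR arrays were all above the control array, by log2 ratios of 0.84, 0.21, 0.87 and 0.13, or 1.79-, 1.15-, 1.83- and 1.10-fold. Only 1.36% of the 7933 gene probes kept by the signal filter lay as far from the control array at 5% CR, and 1.78% at 20% CR, but 38.6% did at 10% and 66.3% at 30% CR. The mean log2 ratio was 0.51 ± 0.29 (95% interval −0.13 to 1.16, adjusted p = 0.988), the largest of the 6 genes, and the slope was 0.02 ± 0.12 per 10% restriction (adjusted p = 0.998). The high pair and the low group were read from these same values, with 1 array per level, so the grouping is a description and was not tested.

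*Si* and *Slc5a1*, the genes above the control array at every level as deposited (for *Si* at 10% CR not after median centring), are shown with their promoters, since both genes are regarded as markers of the mature enterocyte and their start regions differ in kind. The windows run from 250 bases before to 50 after the RefSeq transcription start, in the gene's direction, on build GRCr8, at chr2:159884853-159885152 (minus strand) for *Si* and chr14:81843035-81843334 (minus strand) for *Slc5a1*. Capitals mark exact matches on either strand. The letters searched were GTTAAT, known as the core of HNF1 sites, TTTATG, known from CDX sites, and AGATAA, which fits the family of intestinal zinc finger factors that includes *Gata4*. Also searched were CACGTG, the E box, and TATAAA, whose pair of matches in *Si* overlap each other.
*Si*: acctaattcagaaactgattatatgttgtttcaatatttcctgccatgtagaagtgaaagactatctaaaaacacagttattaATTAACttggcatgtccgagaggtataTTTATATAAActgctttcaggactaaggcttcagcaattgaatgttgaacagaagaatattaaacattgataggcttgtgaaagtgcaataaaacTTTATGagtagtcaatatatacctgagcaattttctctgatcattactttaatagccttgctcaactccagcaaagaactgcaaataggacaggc
*Slc5a1*: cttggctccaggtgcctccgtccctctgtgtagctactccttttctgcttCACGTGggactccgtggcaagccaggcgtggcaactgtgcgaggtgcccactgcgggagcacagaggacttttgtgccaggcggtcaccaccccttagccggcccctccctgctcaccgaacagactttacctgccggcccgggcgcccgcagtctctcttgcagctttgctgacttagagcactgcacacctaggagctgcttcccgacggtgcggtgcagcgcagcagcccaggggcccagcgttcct

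The *Si* window is rich in A and T (33.3% G and C) and the *Slc5a1* window in G and C (64.7%). The *Si* window held the HNF1 core (from −167 relative to the start), the CDX letters (from −45) and the TATA box letters (from −140 and −136), which 7.45%, 12.7% and 14.2% of all 33469 rat promoter windows of this length hold. The *Slc5a1* window held only the E box (from −200), which 6.42% hold. The windows of *Slc2a2*, *Slc2a5* and *Khk* held none of the 5 motifs. The AGATAA letters, in 11.6% of all windows, were in neither printed window. The matches describe the letters alone and are not shown to be bound in this tissue.

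*Slc2a2* codes for GLUT2, through which glucose, galactose and fructose leave the enterocyte towards the blood. Its gene probe (1387228_at) had signals of 777 in the control pool, then 853, 539, 837 and 819 from 5 to 30% CR. The 10% CR array lay below the other 4, which were close to each other. The log2 ratios to the control array were 0.14, −0.53, 0.11 and 0.08, with a mean of −0.05 ± 0.23 (95% interval −0.57 to 0.47, adjusted p = 0.995). Without the 10% CR pool the mean was 0.11 (adjusted p = 0.941), so the sign of the mean rests on that array.

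*Slc2a5* codes for GLUT5, the apical fructose carrier, whose expression in rat intestine is known to be induced by dietary fructose. Signals of its gene probe (1368460_at) were 190 in the control pool, then 268, 133, 168 and 175 from 5 to 30% CR. The highest and the lowest value, 2.01-fold apart, came from the neighbouring levels of 5 and 10% CR, and the 20 and 30% CR arrays were slightly below the control array. The log2 ratios were 0.50, −0.51, −0.17 and −0.12, with a mean of −0.08 ± 0.30 (95% interval −0.75 to 0.60, adjusted p = 0.995). Without the 10% CR pool this mean was 0.07 (adjusted p = 0.991).

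*Khk* codes for ketohexokinase, which phosphorylates fructose as the first step of its use and acts in the enterocyte before fructose reaches the liver. Its gene probe (1387375_at) had signals of 520 in the control pool, then 470, 391, 502 and 527 from 5 to 30% CR. Here too the 10% CR array was the lowest, while the 20 and 30% CR arrays hardly differed from the control array. The mean log2 ratio was −0.15 ± 0.18 (95% interval −0.54 to 0.25, adjusted p = 0.988), and *Khk* had the narrowest spread over the levels after *Si* (SD 0.19 against 0.16). Without the 10% CR pool the mean was −0.06. The interval with all pools reaches from 0.688 to 1.19 times the control signal.

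**Figure D2:**
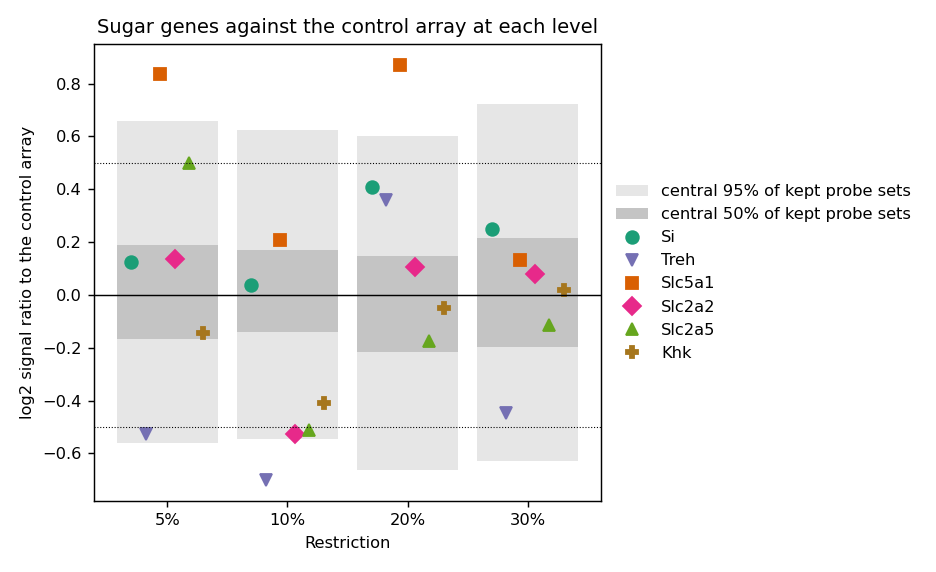
Log2 signal ratio of each CR array to the control array for the 6 genes (symbols), at 5, 10, 20 and 30% restriction. Dark and light grey bars hold the central 50% and 95% of the 7933 kept gene probes at that level, dotted lines mark a log2 ratio of 0.5 in either direction, and each symbol is 1 array of a pool of 5 rats. *Slc5a1* lay above the light grey bar at 5 and 20% CR, and *Treh* below it at 10% CR.

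Counted over the genes, 6 of the 24 ratios reached 0.5 in size (log2, about 1.41-fold). At 5% CR, 1 gene was higher by this much (*Slc5a1*, where 5.62% of all kept gene probes were) and 1 lower (*Treh*, background 3.84%). At 10% CR none was higher (background 4.73%) and 3 of 6 were lower, namely *Treh*, *Slc2a2* and *Slc2a5*, with a background of 3.45%. At 20% CR, *Slc5a1* was higher (background 3.95%) and none was lower (background 6.15%), and at 30% CR none reached the size in either direction (backgrounds 7.51% and 5.61%). The low ratios at 10% CR were close to the threshold for *Slc2a2* (−0.53) and *Slc2a5* (−0.51), and *Slc2a5* missed it narrowly at 5% CR (0.50 after rounding). No gene reached 0.5 at all 4 levels, where 0.769% of kept gene probes were higher and 0.34% lower. Above the control array at every level, by any amount, were *Si* and *Slc5a1*, 2 of 6, with a background of 19%. After median centring of the arrays *Si* was below the control array at 10% CR (−0.025), which leaves *Slc5a1*.

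The median log2 ratio of the 6 genes was 0.13, −0.46, 0.23 and 0.05 at 5, 10, 20 and 30% CR, against medians over all kept gene probes of 0.01, 0.01, −0.03 and 0.00. The genes therefore stood lowest at 10% CR in the median and did not become steadily higher or lower with restriction. At 10% CR, 4 of 6 were below the control array, while 51.1% of all kept gene probes were above it. *Slc2a2*, *Slc2a5* and *Khk*, which carry and phosphorylate fructose, were all lowest at 10% CR, but so was *Treh*. The root mean square difference of the log2 ratios was 0.17 for *Slc2a2* and *Khk* and 0.25 for *Slc2a2* and *Slc2a5*, the smallest of the 15 pairs of genes. *Slc2a5* and *Khk* differed by 0.34, slightly more than *Si* and *Slc2a2* (0.33), so the fructose genes were not a group apart. *Treh* and *Slc5a1* were the farthest apart, with 0.91. At 10% CR markers of Paneth cells, lymphocytes and macrophages were higher, with median log2 ratios of 0.64 (3 of 3 kept markers), 0.63 (3 of 3) and 0.59 (4 of 4), and *Lyz2* is in both the Paneth and the macrophage list. Smooth muscle markers were also above the control array there in 7 of 7 (median 0.14). The background of these marker counts was 51.1% of kept gene probes. The 5 measured Paneth markers summed to 6079 at 10% CR and 3875 on the control array, with *Defa5* at 2.2 or below on every array. The 4 macrophage markers summed to 3926 and 2502, and *Lyz2*, counted in both sums, had 3490 and 2243. The 7 measured lymphocyte markers summed to 1401 and 1224, but also to 1399.5, 1474 and 1393 at 5, 20 and 30% CR. The 7 smooth muscle markers summed to 12403 and 11361. Their part in the low ratios of the sugar genes was not tested.

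In limma none of the 6 genes passed an adjusted p of 0.05 in the comparison of CR with control or in the trend over the restriction percent. The same holds for all 7933 kept gene probes (0% called in either direction in both tests), of which 378 (4.76%) had an unadjusted p below 0.05 in the comparison and 245 (3.09%) in the trend, none of the 6 genes among them. Beside *Si* and *Slc5a1*, the slopes per 10% restriction were 0.02 ± 0.13 for *Treh*, 0.04 ± 0.09 for *Slc2a2*, −0.10 ± 0.11 for *Slc2a5* and 0.04 ± 0.07 for *Khk*. Both tests have 3 residual degrees of freedom, and the comparison takes differences between CR levels as error, so a gene that is high at some levels and low at others has a wide interval.

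**Figure D3:**
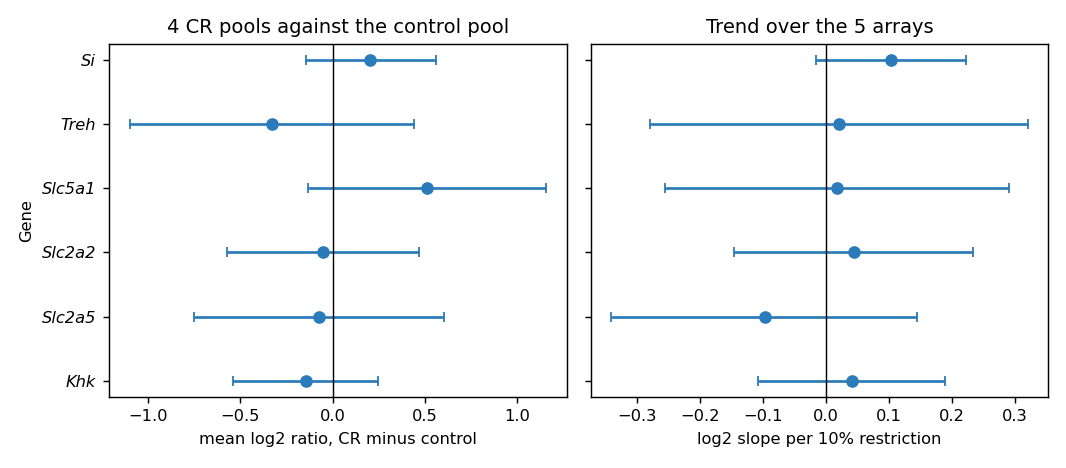
Mean log2 ratio, CR minus control (left), and log2 slope per 10% restriction over the 5 arrays (right) for the 6 genes, with 95% confidence intervals from limma. All 12 intervals include 0, and they are narrowest for *Si* and *Khk*.

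The values of *Slc5a1* were set beside the enterocyte markers, whose median ratio was also highest at 20 and 5% CR. The median log2 ratio of the 15 markers was 0.21, 0.08, 0.67 and 0.10 at 5, 10, 20 and 30% CR. Above the control array were 10, 8, 14 and 10 of 15 (backgrounds 50.8, 51.1, 45.5 and 50.1%). By this count the markers stood out at 20% CR but not at 5% CR, where as many were above as at 30% CR. *Slc5a1* was 0.62 above the marker median at 5% CR, where 1 marker (*Fabp2*) had a larger ratio, but 0.20 above it at 20% CR, where 5 had. *Si*, with 0.41 at 20% CR, was 0.26 below the marker median there, and *Slc2a2*, *Khk* and *Slc2a5* were 0.56, 0.72 and 0.84 below it. At 20% CR, 5 of the 6 sugar genes were thus lower than the median enterocyte marker, although 4 of 6 were above the control array (background 45.5%). At 5, 10 and 30% CR, 4, 5 and 4 of 6 were below the marker median. Most kept gene probes lay below it too at 5 and 20% CR, so the counts do not set the sugar genes apart there. The dark grey bar drawn above for all kept gene probes ended at 0.19 at 5% CR. Their light grey bar ended at 0.602 at 20% CR. At 10 and 30% CR the dark grey bar ended at 0.169 and 0.215, above the marker median. The share of kept gene probes below the marker median was not counted.

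**Figure D4:**
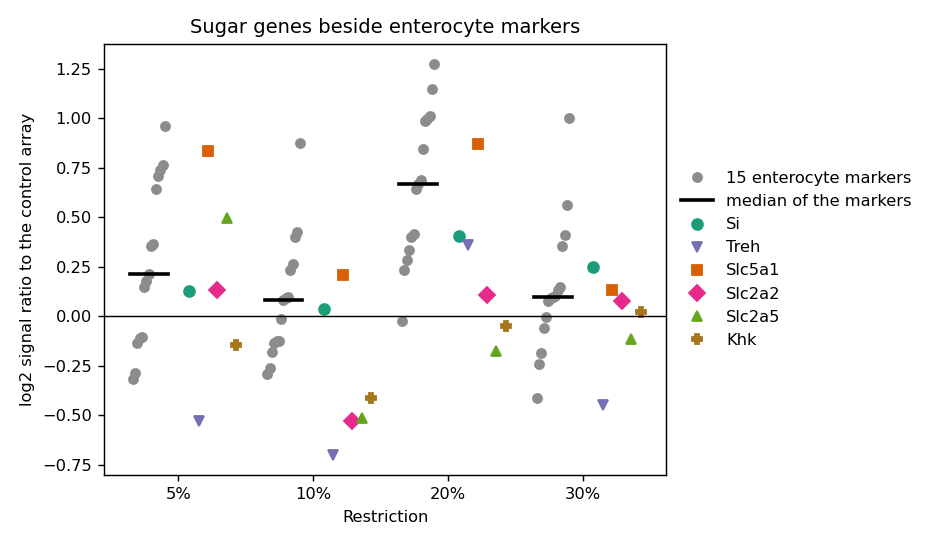
Log2 signal ratio to the control array at each restriction level for 15 enterocyte markers (grey points, sorted by value, with the median as a black bar) and, to their right, the 6 sugar genes (coloured symbols). At 20% CR the marker median was 0.67 and *Slc5a1* (0.87) was the sugar gene above it.

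By the root mean square difference of the 4 log2 ratios, the gene probes most like *Slc5a1* among those with 1 gene name were *Mme* (0.12), a brush border peptidase also called neprilysin, *Slc15a1* (0.15), the apical carrier of di- and tripeptides, and *Tm4sf4* (0.16), a membrane protein. *Mme* had ratios of 0.64, 0.26, 0.99 and 0.15, and *Slc15a1* 0.74, 0.09, 1.00 and 0.36. Both are among the enterocyte markers already set beside *Slc5a1*, so this is not a separate observation. Only 7 gene probes came within 0.20 of *Slc5a1*. Most like *Slc2a2* were *Cd55* (0.07), a regulator of complement, the bile acid receptor gene *Nr1h4* (0.07) and *Haus8* (0.08), but 199 gene probes came within 0.20 of it. Most like *Slc2a5* were *Rnf39* (0.14), *Ppp2ca* (0.15) and *Med9* (0.16), and most like *Treh* were *Mfsd2a* (0.13), *Tmc6* (0.16) and *Naprt* (0.17). With 4 ratios that share a control array, this likeness is a description of these arrays.

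Other genes of sugar handling were taken from lists of the pathway, with 1 gene probe per gene, the brightest. None of the 37 kept genes of these 6 lists passed limma over all kept gene probes. Of the 37, 5 had an unadjusted limma p below 0.05 (*Glb1*, *Slc9a3*, *Hk1*, *Mlxipl* and *Mlx*), with a background of 4.76% of kept gene probes. Of the other sugar transporters and hydrolases, 4 were kept, 1 with a higher and 3 with a lower mean ratio (median −0.14). The higher one was *Glb1*, the lysosomal beta-galactosidase, with 0.59, 0.43, 0.46 and 0.57 at 5, 10, 20 and 30% CR (mean 0.51 ± 0.16, adjusted p = 0.955). The facilitative glucose carrier *Slc2a1* had a mean of −0.27 ± 0.23 and the lysosomal alpha-glucosidase *Gaa* −0.26 ± 0.18.

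Of the partners of sodium-driven uptake, the 4 kept genes split into 1 higher and 3 lower. The subunit *Atp1b1* of the sodium pump, which keeps up the gradient that SGLT1 uses, had a mean log2 ratio of −0.002 ± 0.20, with 0.36 at 20% CR. *Pdzk1*, a scaffold of apical transporters, had 0.74, 0.52, 1.18 and 0.06 (mean 0.63 ± 0.32, adjusted p = 0.988). It was highest at 5 and 20% CR, as *Slc5a1* was, but also reached 0.5 at 10% CR, where *Slc5a1* had 0.21. The apical sodium-proton exchanger *Slc9a3* had −0.53, −0.70, −0.57 and −0.16 (mean −0.49 ± 0.21, adjusted p = 0.988), below the control array at every level.

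Of the steps after *Khk*, 7 genes were kept, 3 with a higher and 4 with a lower mean, and the median over them was −0.06. *Tkfc*, the triokinase that phosphorylates the glyceraldehyde made from fructose, had −0.36, −0.41, 0.13 and −0.43 (mean −0.27 ± 0.21), and *Fbp1*, which acts in gluconeogenesis from trioses, had −0.13 ± 0.18, lowest at 10% CR (−0.41) as *Khk* was. *Glyctk*, glycerate kinase, had 0.18 ± 0.24 and the aldose reductase gene *Akr1b1* 0.08 ± 0.14. Of 5 kept genes of hexose phosphorylation and galactose use, 2 were higher and 3 lower. *Hk1*, the hexokinase that phosphorylates glucose, had 0.83, 1.16, 0.56 and 0.73 (mean 0.82 ± 0.26, adjusted p = 0.955), but its control signal of 44.9 lay below the filter on the mean. *Pgm1*, which links glucose phosphates to glycogen, had 0.16 ± 0.20. *Galt*, of galactose use, had −0.33 ± 0.19 and *Gpi*, which interconverts hexose phosphates, −0.11 ± 0.14.

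The list of sugar sensing was the one with the lowest median, −0.32, against −0.01 over all kept gene probes. This median is the value of *Thra*, a thyroid hormone receptor gene in the list. Of the 7 kept genes 6 were lower in the mean, whereas 49.1% of all kept gene probes were higher. *Mlxipl*, which codes for ChREBP, the transcription factor that responds to sugar and is known to act on *Khk* and *Slc2a5* in mouse intestine, had a control signal of 242 and log2 ratios of −0.55, −0.33, −0.35 and −0.82 (mean −0.51 ± 0.21, adjusted p = 0.988). Its partner *Mlx* had −0.47, −0.40, −0.49 and −0.38 (mean −0.44 ± 0.14, adjusted p = 0.955). Both were below the control array at all 4 levels, as 20.6% of kept gene probes were. *Pklr*, the pyruvate kinase gene that ChREBP is known for, had a mean of −0.41 ± 0.19, and *Txnip*, another known target, −0.006 ± 0.17. *Gip*, the incretin hormone released on sugar uptake, was the gene with a positive mean, 0.09 ± 0.13.

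Of 10 kept transcription factors of enterocyte genes, 2 were higher and 8 lower in the mean (median −0.15). *Cdx2*, which is known to bind the *Si* promoter, had −0.11 ± 0.13 and *Gata4* −0.02 ± 0.14, both close to the control array at every level. *Gata5* had 0.48 ± 0.24 and *Klf4* 0.16 ± 0.19. *Pdx1*, a factor of the duodenum, had −0.12, −0.44, −0.46 and −0.56 (mean −0.40 ± 0.20), and *Foxa3* −0.35 ± 0.37. The 30% CR pool (−0.97) weighed most on *Foxa3*, whose mean was −0.15 without it.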

How the data were processed

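Signals of 5 arrays, each of the pooled small intestine RNA of 5 rats, were analysed. The deposited values are MAS5 signal intensities on a linear scale, which the authors computed with the Affymetrix software and scaled to a like trimmed mean (132, without the lowest and highest 2%) on each array. No source used here names the scaling target. MAS5 takes the mismatch signal off, which makes weak signals noisy, and scaling hides differences in total RNA. The number of arrays limits the precision.

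Signals were floored at 0.1 and taken to log2. Of 15866 gene probes without the 57 array controls, 12783 carry 1 gene name in the platform annotation, 312 several and 2771 none used here, and 0 symbols needed updating. The 7933 gene probes whose mean log2 signal reached the median of these means (5.54) were kept, with all 6 gene probes described here among them. In R 4.3.3, limma 3.58.1 (lmFit, eBayes with trend = TRUE) was used: the CR pools were set against the control pool, and a slope over the restriction percent was fitted. Tests were two-sided, with Benjamini-Hochberg adjustment over the kept gene probes and a threshold of 0.05, and the variance of the single control pool was taken to equal that of the CR pools. Ratios of at least 0.5 (log2) were counted without a test. The fits were tested on simulated data.

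The members, lists and tests were chosen with earlier results of these data known. All gene probes of the members were named, with up to 2 highest and 2 lowest mean ratios of each pathway list and the 3 gene probes most like each member that reached a ratio of 0.5 at some level. *Atp1b1*, *Pklr*, *Txnip*, *Thra*, *Cdx2* and *Gata4* were named after their values were seen. Marker lists covered enterocytes, proximal intestine, ileum, crypt, goblet, Paneth and enteroendocrine cells, smooth muscle, fibroblasts, lymphocytes, macrophages, exocrine pancreas, blood and liver. Promoter sequences come from RefSeq (GRCr8), which matched 6 of the 7 listed genes, all but *Treh*. Other settings tried were quantile or median scaling, an added constant (13, quantile 0.25 of the signals), both no filter and a stricter one (quantile 0.75), 2 other priors for the variance, ranks in place of percents, a size of 1, and leaving out each pool.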

Additional observations from a re-analysis of the deposited data

How the results depend on the processing

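No paired analysis was possible because each pool of rats had 1 diet and no sample number links pools. No mean or slope of the 6 genes was called in limma under any setting tried, and no scaling, filter or variance setting turned the sign of one. Of the ratios at single levels, median centring turned *Si* at 10% CR (−0.025, against 0.038) and *Khk* at 20% CR (0.013, against −0.05). Leaving out pools did: the mean log2 ratio of *Slc2a2* ranged from −0.114 to 0.106 (positive without the 10% CR pool) and that of *Slc2a5* from −0.267 to 0.07 (likewise). Slopes per 10% restriction ranged from −0.082 (without 20% CR) to 0.235 (without 30% CR) for *Treh*, which was also negative without the 5% CR pool (−0.028) and without the 10% CR pool (−0.007), from −0.152 (without the control) to 0.317 (without 30% CR) for *Slc5a1*, and from −0.024 (without 30% CR) to 0.116 (without the control) for *Khk*. The slope of *Slc2a5* ranged from −0.203 (without 30% CR) to −0.001 (without 5% CR). The cause was not tested.

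Of all kept gene probes, limma called 0 higher in CR with all pools (215 at an unadjusted p below 0.05) and 0 to 3 with 1 pool left out, the 3 without the 30% CR pool. Counts of ratios of at least 0.5 follow the filter and the threshold by construction. Those at 5, 10, 20 and 30% CR were 751, 649, 801 and 1041, against 4959, 5059, 5391 and 5368 without a filter, 190, 150, 219 and 340 with the stricter one, and 46, 53, 90 and 86 at a size of 1. With the added constant the count at 10% CR was 430. At all 4 levels, 61 were higher and 27 lower, against 693 and 443 without a filter, 16 and 6 with the stricter one, 10 and 1 at a size of 1, and 38 higher with the added constant. Leaving out a CR pool, which asks for fewer levels, gave 68 to 117 higher (117 without 20% CR) and 40 to 60 lower (60 without 10% CR). Higher ones made up 57.8% of those counted at 10% CR and 40.9% after median centring, and 39.1% at 20% CR against 52.5% after quantile normalization and 54.8% after median centring. With the added constant *Treh* at 5% CR and *Slc2a5* at 10% CR no longer reached 0.5 in size, and after median centring *Slc2a5* did at 5% CR (0.51).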

Other observations

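Among the cell type markers beside the enterocyte, smooth muscle genes (*Des*, *Myh11* and 5 others) had a lower mean log2 ratio of CR to control in 7 of 7, with a median of −0.16, though all 7 were above the control array at 10% CR (median 0.14). Genes of fibroblasts and matrix had a lower mean in 5 of 6 (median −0.17), with *Col1a2* at −0.50 and *Col3a1* at −0.40. Paneth and macrophage markers were higher in 3 of 3 kept genes (median 0.33) and in 3 of 4 (0.35), and lymphocyte markers in 3 of 3 (0.17). Medians were 0.16 over 6 crypt and proliferation genes, 0.09 over 5 enteroendocrine genes, −0.07 over 5 goblet cell genes and −0.16 over 6 genes of the proximal intestine, against −0.01 over all kept gene probes. Only *Cela1* (−0.15) of the exocrine pancreas, *Nr1h4* (−0.04) of the ileum and *Hbb* (−0.27) of the blood list were kept, and of 5 liver markers 0 were. None of these genes passed limma over all kept gene probes.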
